A study of Mus musculus with 9 samples.

Results

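The far intergenic regions of the melanoma genome are sites of open chromatin that overlap no protein-coding gene and lie more than 50 kb from every protein-coding gene end. To find them, the 9214 most significant peaks on chromosomes 1 to 19 and X were kept in each of 9 ATAC-seq libraries, which is the length of the shortest list, and overlapping peaks were merged into 15669 regions. Of these, 1000 (6.38%) met the distance rule and were the members described here. The other regions were 2170 intergenic regions nearer to a gene, here called near intergenic, 3905 inside coding gene bodies and 8594 within 1 kb of a coding gene end. Positions follow GRCm38 (mm10), the build of the files.

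ATAC-seq uses a transposase to cut and tag accessible DNA. The cells were from the mouse melanoma line B16, injected into mice as tumours and sorted from them on day 15. The 3 groups, of 3 libraries each, were untreated B16 cells (B16_untreated), B16 cells given IFNy (interferon gamma) before injection, for 2 weeks in replicates 1 and 2 and 3 weeks in replicate 3 (B16_IFNg), and strain 499, a B16 derivative resistant to checkpoint blockade (Res499). No label says that replicates came from separate mice, so every p-value measures only the spread between these libraries, and Res499 stands for a single derived line.

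Open sites far from coding genes are mostly of a few kinds. Distal enhancers bind transcription factors and can contact promoters across long stretches of DNA, and gene deserts around developmental regulators such as Sox9 or Mef2c are rich in them. Other such sites are promoters of long non-coding RNAs (lncRNAs), and sites bound by architectural factors such as CTCF. Repeated sequence, such as satellite DNA beside centromeres and copies of ribosomal RNA genes, is also found there, and reads from its many copies can be placed on a few assembled ones. A region's nearest coding gene is given below as a landmark only, since peak lists do not show which gene a site acts on.

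The non-coding gene annotation covered a part of the members. Of the 1000 far regions, 272 (27.2%) lay inside an annotated non-coding gene or pseudogene and 60 (6%) overlapped a non-coding promoter, taken as the 300 bases from 250 before to 50 after a start in RefSeq (GRCm38.p6). The 60 promoter members were called in a median of 3 libraries, and 9 of them (15.0%) in all 9. The 722 members that touched no annotated gene were called in a median of 2 libraries, and 45 of them (6.23%) in all 9. The median width of the merged region was 598 bp on non-coding promoters and 380.5 bp outside genes.

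Promoter sequences are shown for 6 members, because they are the far regions whose kind of element is given by the annotation. The first 4 had the best mean ranks among the non-coding promoters called in all 9 libraries. Dubr, a lncRNA described in muscle differentiation, and Jpx, a lncRNA of the X-inactivation centre, were added after their values were seen. Each line reads 5′ to 3′ on the strand of the RNA, from RefSeq, and capitals mark matches, on either strand, to any of 5 motifs. The GC box, which SP1 binds, was searched as GGGCGG. The box bound by the factor NF-Y was searched as CCAAT. The E-box, a site of basic helix-loop-helix factors, was searched as CACGTG. The core of the M-box, which the melanocyte factor MITF binds, was searched as CATGTG. The motif of AP-1, the dimer of Jun and Fos proteins, was searched as TGANTCA. No searched motif contains another.
Gm26901 (chr1:7398047-7398346, minus strand): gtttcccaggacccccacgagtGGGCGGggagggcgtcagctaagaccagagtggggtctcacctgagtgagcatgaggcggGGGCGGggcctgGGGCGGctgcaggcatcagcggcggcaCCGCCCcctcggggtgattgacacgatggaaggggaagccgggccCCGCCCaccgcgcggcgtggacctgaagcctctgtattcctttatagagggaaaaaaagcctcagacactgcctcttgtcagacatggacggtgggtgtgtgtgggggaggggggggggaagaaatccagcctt
D130051D11Rik (chr15:85634346-85634645, plus strand): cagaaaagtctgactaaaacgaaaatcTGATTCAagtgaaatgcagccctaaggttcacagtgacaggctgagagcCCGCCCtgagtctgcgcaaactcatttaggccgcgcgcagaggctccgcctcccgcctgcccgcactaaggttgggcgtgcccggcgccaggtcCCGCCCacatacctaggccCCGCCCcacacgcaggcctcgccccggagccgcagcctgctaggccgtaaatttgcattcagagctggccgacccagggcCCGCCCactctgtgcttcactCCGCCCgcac
BC002059 (chr17:16951286-16951585, plus strand): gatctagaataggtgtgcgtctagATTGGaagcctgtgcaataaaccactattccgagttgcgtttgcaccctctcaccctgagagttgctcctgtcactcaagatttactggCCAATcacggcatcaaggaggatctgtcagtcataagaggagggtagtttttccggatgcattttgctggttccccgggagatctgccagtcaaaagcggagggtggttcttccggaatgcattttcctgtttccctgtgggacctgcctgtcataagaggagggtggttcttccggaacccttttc
A230028O05Rik (chr16:25059389-25059688, plus strand): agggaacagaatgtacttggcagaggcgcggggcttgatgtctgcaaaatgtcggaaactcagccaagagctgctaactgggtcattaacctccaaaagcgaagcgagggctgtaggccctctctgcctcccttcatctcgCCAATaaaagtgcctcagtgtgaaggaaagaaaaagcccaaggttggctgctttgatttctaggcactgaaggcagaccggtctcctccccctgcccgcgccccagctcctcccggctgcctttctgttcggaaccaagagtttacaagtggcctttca
Dubr (chr16:50732724-50733023, minus strand): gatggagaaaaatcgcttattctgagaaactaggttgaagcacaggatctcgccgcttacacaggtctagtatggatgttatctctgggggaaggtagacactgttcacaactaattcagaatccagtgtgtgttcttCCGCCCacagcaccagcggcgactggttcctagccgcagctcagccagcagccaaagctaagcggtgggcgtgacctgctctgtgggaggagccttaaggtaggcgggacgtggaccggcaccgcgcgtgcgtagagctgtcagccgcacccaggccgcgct
Jpx (chrX:103493308-103493607, plus strand): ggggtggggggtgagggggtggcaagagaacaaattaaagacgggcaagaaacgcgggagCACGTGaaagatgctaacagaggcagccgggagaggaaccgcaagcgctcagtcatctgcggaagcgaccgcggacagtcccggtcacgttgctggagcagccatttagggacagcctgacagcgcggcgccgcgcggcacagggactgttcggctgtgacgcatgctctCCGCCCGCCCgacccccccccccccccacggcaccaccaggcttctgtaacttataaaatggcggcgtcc

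These promoters differ in make-up. The Gm26901 and D130051D11Rik windows each hold 5 GC boxes, with 18 and 23 CpG dinucleotides. The BC002059 window holds 2 CCAAT boxes and 9 CpGs, and the A230028O05Rik window 1 CCAAT box and 11 CpGs. The Dubr window holds 1 GC box among 19 CpGs, and the Jpx window holds 2 overlapping GC boxes and 1 E-box among 27 CpGs. Over the 60 non-coding promoter members, with the 1 window that overlaps each member most, the AP-1 motif was found in 7 (11.7%) against 7.79% of all 32544 promoter windows of 300 bases. The M-box core was found in 8 (13.3%) against 14.2%, the E-box in 10 (16.7%) against 7.17%, the GC box in 26 (43.3%) against 35.9% and the CCAAT box in 23 (38.3%) against 37.4%. The median number of CpGs was 10 in the 23 windows under members called in at least 7 libraries, 7 in the 23 under members called in 1 or 2, and 7 in all windows. A match is a description of the letters only.

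The peaks on these promoters ranged from high to low ranks. A rank counts from 1, the most significant peak of a library by −log10 p. The Gm26901 region (chr1:7397379-7398428, 224 kb from Pcmtd1) ranked 1661, 341 and 839 in B16_untreated, 171, 94 and 133 in B16_IFNg, then 508, 93 and 574 in Res499. All B16_IFNg ranks were ahead of all B16_untreated ranks there, and Res499 overlapped both. The D130051D11Rik region (chr15:85634396-85635254, 52.6 kb from Wnt7b) ranked 2072, 1360 and 937 in B16_untreated, 710, 187 and 1363 in B16_IFNg, then 1074, 704 and 219 in Res499, with overlap between all groups. The Dubr region (chr16:50732272-50733051) ranked 3221, 2737 and 2172, then 1559, 1105 and 2160, then 1527, 3494 and 5005, in the same group order. Here B16_IFNg was ahead of B16_untreated in every library, though only by 2160 against 2172 at the closest, and Res499 spanned both. That order was not tested. The Jpx region (chrX:103493345-103493972) was a weak site, with ranks from 3804 to 8377, and was missing from the kept peaks of B16_IFNg replicate 3 alone.

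The deposited lists differed in length, strength and fragment length. They held 9221 to 25374 peaks and no read counts, so the depth behind a peak is unknown. The last kept peak had a −log10 p of 11.8 to 16.4 in B16_untreated and 4.92 to 10.1 in the other 6 libraries, so equal lists reach weaker peaks there. The shortest peak of each list set 4 libraries in a long fragment class (162 to 185 bp): replicate 3 of each group and replicate 1 of B16_untreated. The other 5 formed a short class (95 to 125 bp). Of 8 melanoma marker genes, 6 had a kept peak within 1 kb of an end in at least 1 library, Mitf and Pmel in all 9, while Sox10 and Mlana had none. In the full deposited lists Sox10 and Mlana had a peak in 1 library each. Among markers of other cells, 1 of 10 leukocyte genes (Spi1, in 1 library), 1 of 6 fibroblast genes (Col1a1, in 3 libraries), 0 of 4 endothelial and 0 of 2 keratinocyte genes had a kept peak. In the full lists Spi1 had a peak in 4 libraries and Col1a1 in 7. The other markers of such cells had none there, except Cd4 in 3 libraries and Pdgfrb in 1. Their part in the results below was not tested, and in such bulk samples fewer cells with an open site and less opening per cell cannot be told apart.

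The number of far regions called did not differ between the groups beyond the spread of their libraries. B16_untreated called 394, 372 and 367 of the 1000 members, B16_IFNg 321, 327 and 376, and Res499 277, 350 and 422. The groups overlapped, and Res499 had both the lowest and the highest count. The means were 378 ± 14.4 in B16_untreated, 341 ± 30.2 in B16_IFNg and 350 ± 72.5 in Res499 (SD, n = 3 each). The mean of B16_IFNg and Res499 together minus that of B16_untreated was −32.2 far regions (two-sided exact permutation test, 84 choices of libraries, p = 0.357, and 0.615 after Benjamini-Hochberg adjustment over the 6 tests of far regions). Within the fragment classes the difference was −13.4 regions (exact p = 0.6). Between pairs of groups the exact p was 0.3 for B16_IFNg and 0.7 for Res499 against B16_untreated, and 0.9 between them, where 3 against 3 libraries cannot go below 0.1.

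The share of far peaks depended on how much of each list was counted. Among the 9214 kept peaks it was 3.08 to 4.60% per library. Among all deposited peaks on these chromosomes the B16_untreated libraries had 6.28, 7.91 and 6.78%. The B16_IFNg libraries had 5.82, 6.12 and 5.08%, and the Res499 libraries 5.97, 3.96 and 5.56%. There the B16_untreated libraries lay above the other 6 with no overlap, and the difference was −1.57 percentage points (exact p = 0.0238, not adjusted), or −1.75 points within the fragment classes (exact p = 0.0667). The full lists reach down to weaker peaks by different amounts, as their lengths of 9221 to 25374 peaks show, and the part of list length in this difference was not tested.

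The near intergenic regions gave the scale for the counts of far regions. They numbered 846, 869 and 923 in B16_untreated, 759, 722 and 869 in B16_IFNg, then 728, 755 and 796 in Res499. Both other groups together had 108 fewer of them than B16_untreated (exact p = 0.0476, and 85.8 fewer within the fragment classes, exact p = 0.0667). The log2 ratio of far to near regions was −1.22 ± 0.11 in B16_untreated, −1.20 ± 0.05 in B16_IFNg and −1.14 ± 0.24 in Res499 (SD, n = 3 each). It did not separate the groups, with a difference of 0.05 (exact p = 0.667).

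Far peaks were on average slightly narrower than near intergenic peaks. Their lower width outside B16_untreated did not pass the threshold after adjustment over all far peaks. Over the members called in every library, each B16_untreated library lay above the other 6, while B16_IFNg and Res499 overlapped. Over all far peaks, the median width was 441, 341 and 589 bp in B16_untreated, 320.5, 235 and 370 bp in B16_IFNg, and 257, 229 and 366 bp in Res499. The highest B16_IFNg and Res499 values lay between the B16_untreated values, so the groups overlapped. In every group the libraries of the long class had the widest far peaks. The 2 groups together were 161 bp narrower than B16_untreated (exact p = 0.0476, adjusted p = 0.143), and 118 bp narrower within the fragment classes (exact p = 0.0333, over 30 arrangements). The unadjusted call was lost without B16_untreated replicate 1 (exact p = 0.107) or replicate 3 (exact p = 0.214), and without B16_IFNg replicate 1 or 2 or Res499 replicate 1 or 2 (exact p = 0.0714 for each).

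Over the 70 members called in all 9 libraries, which compares the same sites, the B16_untreated libraries had median widths of 635, 542 and 793.5 bp. The B16_IFNg libraries had 477, 366.5 and 496 bp, and the Res499 libraries 375, 381.5 and 538 bp. Every B16_untreated library was above the other 6, and the difference was −218 bp (exact p = 0.0119, the smallest that 84 choices allow, not adjusted), or −173 bp within the fragment classes (exact p = 0.0333). The closest values were 542 bp in B16_untreated replicate 2 and 538 bp in Res499 replicate 3, whose whole kept lists had medians of 604 and 498 bp. For these members the ratio to the whole list was not tested.

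Peaks outside the far regions were narrower in these groups too. The median width of the whole kept list was 604 to 742 bp in B16_untreated and lower in each of the other 6 libraries, down to 329 bp in Res499 replicate 2. Near intergenic peaks were 173 bp narrower in the 2 groups together than in B16_untreated (exact p = 0.0357). As a ratio to the median width of its whole list, the far median was 0.688 ± 0.116 in B16_untreated, 0.664 ± 0.067 in B16_IFNg and 0.666 ± 0.088 in Res499 (SD, n = 3 each), and the difference of −0.023 had an exact p of 0.69. Within libraries, far peaks had a lower median width than near intergenic peaks in 9 of 9 libraries, by 17.2 bp on average (two-sided exact sign-flip permutation test, p = 0.0039, the smallest that 9 libraries allow, adjusted p = 0.0234). That gap ranged from 229 against 230 bp in Res499 replicate 2 to 341 against 390 bp in B16_untreated replicate 2. The gap to the whole list was wider, with medians of 329 to 742 bp there.

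**Figure D1:**
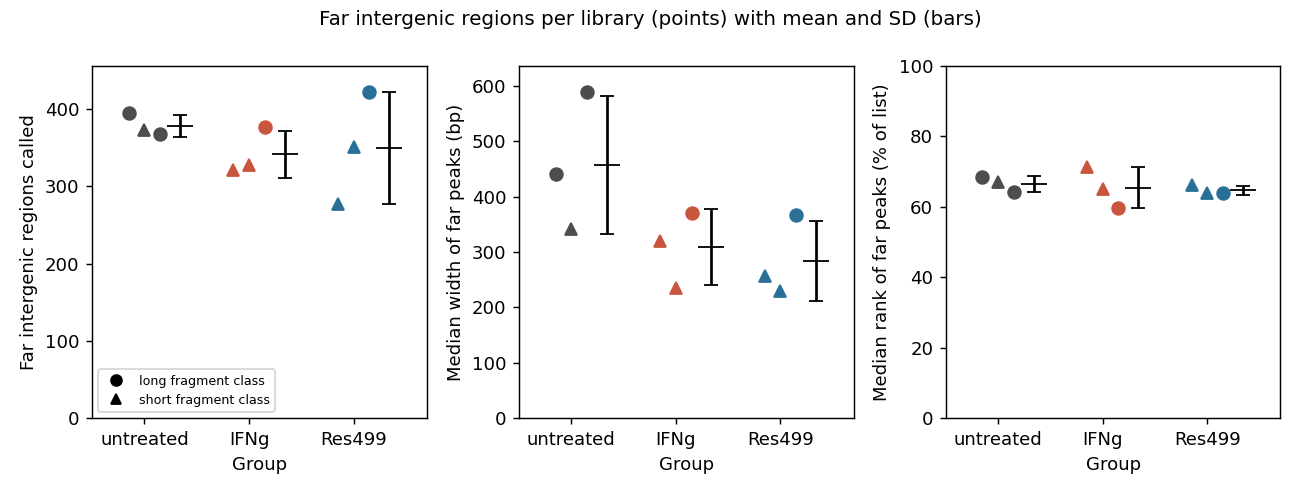
Number of far intergenic regions called (left, regions), median width of far peaks (middle, bp) and median rank of far peaks (right, percent of the 9214 kept peaks, lower is more significant) in each library, by group. Circles are libraries of the long and triangles of the short fragment class, and bars give the mean and SD of 3 libraries. Counts and ranks overlap between groups, and widths are highest in B16_untreated replicate 3 at 589 bp.

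Most far peaks stood in the weaker part of each list. Their median rank, as a percentage of the list, was 68.3, 66.9 and 64.1 in B16_untreated, 71.2, 65.1 and 59.7 in B16_IFNg, then 66.2, 63.9 and 64.0 in Res499. Peaks within 1 kb of a gene end had medians of 43.5 to 44.7. Far peaks of B16_IFNg and Res499 differed from those of B16_untreated by −1.40 percentage points (exact p = 0.56), and far peaks differed from near intergenic peaks by −0.86 points (exact sign-flip p = 0.41, better ranked in 5 of 9 libraries). Their median fold enrichment over the local background, a value of the authors' peak caller, was 5.401 to 10.7 per library, close to the median of each whole list (5.60 to 11.03).

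The very top of the lists was different. Far regions held 25% to 45% of the first 20 peaks, 3.75% to 12.5% of ranks 21 to 100, and 1.44% to 2.78% of ranks 101 to 1000. Their share was 1.9% to 3.40% of ranks 1001 to 5000, a rise in every library but B16_IFNg replicate 2, where it went from 2.44% to 2.3%. It then rose in all libraries, to 4.18% to 6.07% of ranks 5001 to 9214. In number, far peaks took 7, 5 and 5 of the first 20 in B16_untreated, 9, 9 and 8 in B16_IFNg, then 9, 9 and 8 in Res499. Every library of the latter groups was above every B16_untreated library, a pattern chosen after its values were seen and given with no test. Over the first 1000 peaks the counts were 24, 34 and 30, then 29, 38 and 32, then 32, 35 and 32, which overlapped (difference 3.67, exact p = 0.25).

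**Figure D2:**
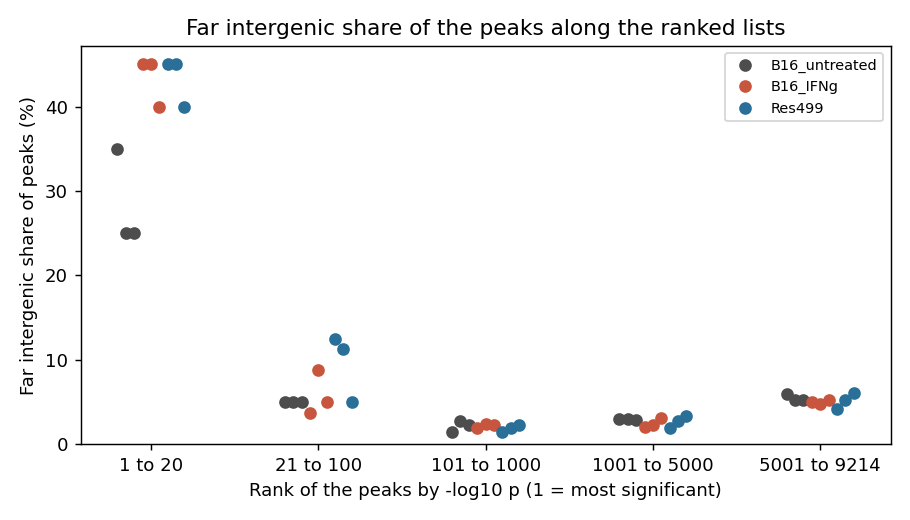
Share of peaks that are far intergenic (percent) in 5 windows of rank, from the most significant 20 peaks to ranks 5001 to 9214, with 1 point for each library and colours for the 3 groups. The share is 25% to 45% in the first window and at most 12.5% in every later one.

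A few sites fill these top ranks. Beside Lrrc4c, which encodes a synaptic adhesion protein, a region 1035 kb away (chr2:98666246-98667318) ranked 3, 2 and 2 in B16_untreated, 2, 1 and 2 in B16_IFNg, then 1, 2 and 2 in Res499. A second region 1031 kb from the same gene (chr2:98662247-98663879) ranked 11, 15 and 11, then 4, 5 and 8, then 7, 4 and 10. The region beside Pex2, a gene of peroxisome assembly, lay 282 kb away (chr3:5860363-5860819) and ranked 2, 3 and 3, then 5, 6 and 4, then 4, 5 and 4. Each of these sites was thus among the first 15 peaks in all 9 libraries.

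The next sites stayed among the leading peaks. The region 60.9 kb from Axin2, a feedback inhibitor of Wnt signalling (chr11:109011652-109012088, inside the lncRNA gene Gm36876), ranked between 7 and 14 in all libraries, and that 171 kb from Samd9l (chr6:3201228-3201567) between 12 and 17. The region near Cr2, a complement receptor gene (chr1:195241323-195241891), ranked 20 to 232, and that near Tmem161b (chr13:84347878-84348852, inside the lncRNA gene Gm41011) ranked 26 to 325. The fold enrichment at Pex2 was 30.5, 52.6 and 33.4 in B16_untreated, 34.8, 37.4 and 29.1 in B16_IFNg, then 41.5, 34.3 and 28.1 in Res499. No group stood apart in that fold, although its ranks did.

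Some leading sites carry annotation of repeated sequence. Near Esp38, 2 members called in all 9 libraries (chr17:39843039-39846706 and chr17:39847554-39848785) overlap Rn18s-rs5, a pseudogene related to 18S ribosomal RNA. The first ranked 40, 21 and 126 in B16_untreated, 46, 59 and 417 in B16_IFNg, then 23, 33 and 61 in Res499, with overlap between groups. Its fold enrichment of 1.59 to 3.03 was low for such ranks, and its peaks were 3247 to 3668 bp wide. No repeat annotation, mappability track or list of excluded regions was used here, so the part of repeated sequence in these peaks was not tested.

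Among the 70 members called in all 9 libraries, 5 (7.14%) had every B16_untreated rank behind the other 6 ranks, against 1.29% of all 4481 regions called in all 9, and 3 (4.29%) had every B16_untreated rank ahead, against 1.5%. The 5 were the second Lrrc4c region, a region near Rab10, 2 regions near Alkbh8 and 1 near Gm2244. Near Rab10, a gene of vesicle transport (chr12:3109884-3110094), the ranks were 27, 271 and 55 in B16_untreated, 10, 7 and 15 in B16_IFNg, then 11, 14 and 18 in Res499. Near Gm2244 (chr14:19415732-19419414, at 3683 bp the widest member) they were 70, 1359 and 127, then 14, 13 and 16, then 16, 15 and 19. In both, the B16_untreated libraries were spread and the other 6 close together.

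The Alkbh8 sites lie 310 and 334 kb from that gene of tRNA modification, at the start of chromosome 9. The region chr9:3023851-3025577 ranked 63, 554 and 113 in B16_untreated, 12, 12 and 18 in B16_IFNg, then 17, 16 and 17 in Res499. The region chr9:3000012-3000862 ranked 3403, 2649 and 2221, then 120, 23 and 56, then 48, 39 and 107. Its fold enrichment was 8.51, 14.3 and 11.01 in B16_untreated, 12.4, 16.9 and 10.6 in B16_IFNg, then 13.0, 11.8 and 9.90 in Res499. B16_untreated, which stood apart from the other groups in rank, thus overlapped both in fold. The fold of the region chr9:3023851-3025577 was 14.3, 20.6 and 18.3, then 25.02, 24.9 and 16.6, then 26.5, 21.7 and 17.3, which overlapped too.

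The 3 members with B16_untreated ahead were the Pex2 region and sites near Tmco5 and Slc38a6. The Tmco5 site (chr2:116975343-116976294) ranked 389, 335 and 223 in B16_untreated, 1616, 1349 and 1511 in B16_IFNg, then 1955, 2603 and 661 in Res499. The Slc38a6 site (chr12:73415936-73416949, 53.9 kb from that amino acid transporter gene) ranked 2529, 1549 and 1491, then 3929, 8031 and 5091, then 5814, 6569 and 4297. Its fold enrichment was 7.69, 14.1 and 11.3, then 8.43, 5.89 and 5.83, then 6.73, 5.13 and 6.27, which overlapped between groups.

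**Figure D3:**
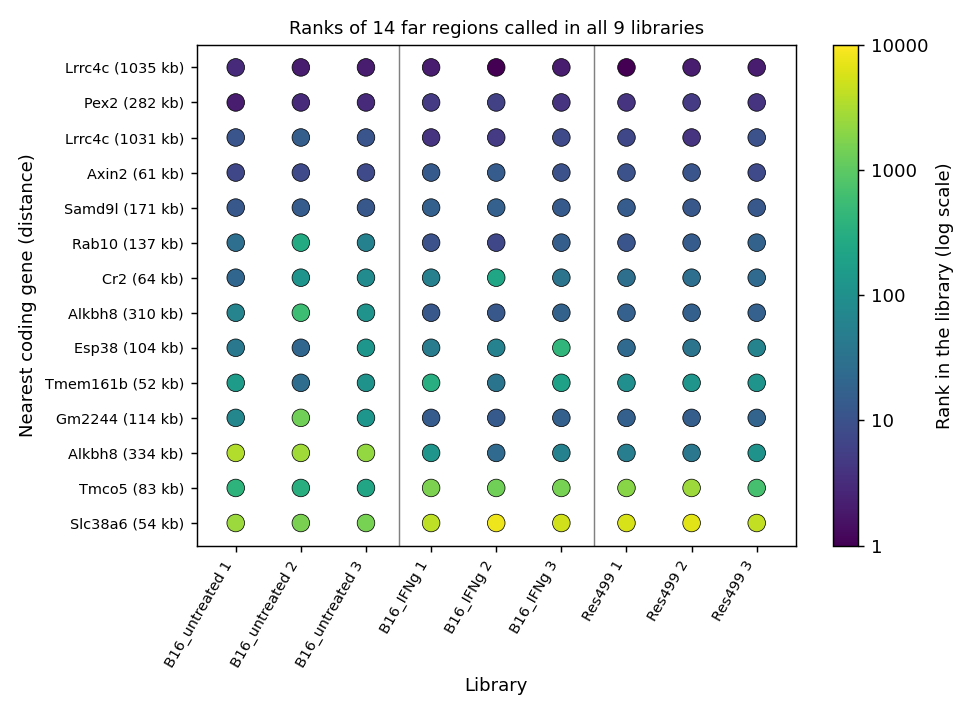
Rank (colour, log scale, 1 is the most significant) of 14 far regions called in all 9 libraries: the 10 with the best mean rank and those whose B16_untreated ranks lie all behind or all ahead of the others. Rows are named by the nearest coding gene and its distance in kb, and columns are libraries. The 5 rows with B16_untreated behind are the Lrrc4c (1031 kb), Rab10, Gm2244 and both Alkbh8 rows.

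The start of chromosome 9 held the densest group of far regions. Of 1000 members, 16 lay between positions 3000012 and 3038207 there. B16_untreated called 5, 3 and 3 of them, B16_IFNg 6, 11 and 9, and Res499 8, 10 and 7. Over the first 4 Mb of all chromosomes, which in the mouse adjoin the centromere, 30 members (3%) were found, against 16 near intergenic regions (0.737%) and 44 (1.13%) in gene bodies. B16_untreated called 9, 8 and 7 of the 30, B16_IFNg 12, 21 and 14, and Res499 15, 17 and 14. Every library of the latter 2 groups, which overlapped each other, was above every B16_untreated library. This window was chosen after its values were seen and has no test. The mean difference of 7.5 regions was 4.5 over all deposited peaks and 0.167 where every gene of the table, coding or not, was counted for the distance rule, a rule that left 254 members.

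Of the 1000 far regions, 560 were called in 2 or fewer libraries. In 1 library alone stood 415 (41.5%), and 70 (7%) were called in all 9. Near intergenic regions had 39.9% and 8.34%, regions inside gene bodies 35.4% and 12.4%, and regions within 1 kb of a gene end 8.86% and 43.6%. The mean Jaccard index over far regions, the share of the regions of 2 libraries that both call, was 0.393 within groups (0.331 to 0.536) and 0.373 between groups (0.294 to 0.448), against 0.641 and 0.632 over all regions. The ranges within and between groups overlapped, and their difference was not tested.

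**Figure D4:**
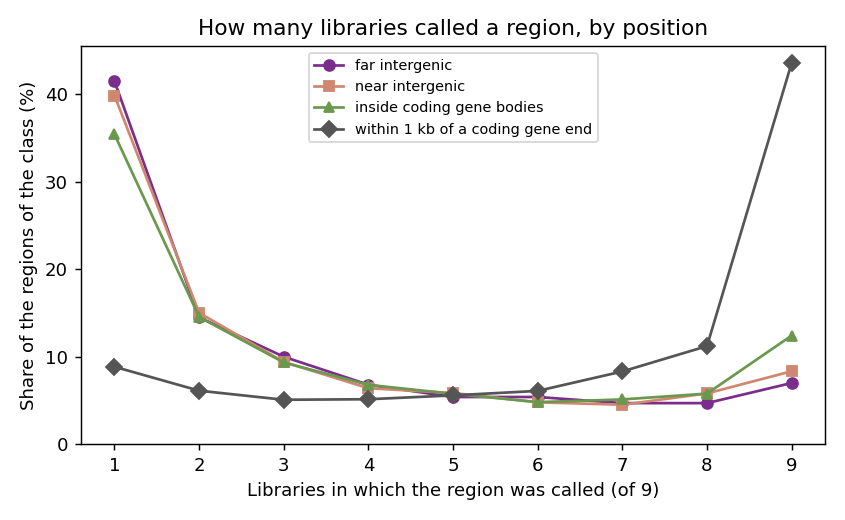
Share of regions (percent of the class) by the number of libraries that called them, for the 1000 far intergenic, 2170 near intergenic, 3905 gene-body and 8594 gene-end regions. Far and near intergenic regions peak at 1 library, at 41.5% and 39.9%, and gene-end regions at 9 libraries, at 43.6%.

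Members at 100 to 200 kb from a gene had the highest share of calls in all 9 libraries among 4 bins of distance. Members lay 50.04 to 2138 kb from the nearest coding gene end, with a median of 116 kb. Of the 286 members at 100 to 200 kb, 10.1% were called in all 9 libraries, against 7.76% of the 425 at 50 to 100 kb, 2.87% of the 209 at 200 to 500 kb and 2.5% of the 80 beyond 500 kb. The farthest member, beside Cntnap5b (chr1:102628214-102628318), was called in B16_untreated replicate 2 and Res499 replicate 1. The members just inside the limit, near Podxl, Dpyd and 4933402D24Rik at 50.04, 50.09 and 50.7 kb, were called in 1 library each. The regions just outside it, near Rwdd3, Cstad and Gpc5 at 49.7, 49.7 and 49.6 kb, were called in 6, 1 and 9.

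A region counted as gained or lost when all 3 libraries of a group called it and none of another did. B16_IFNg against B16_untreated had 3 gained of 350 far regions called in at least 3 of these 6 libraries (0.857%, against 0.59% of all 9494 regions) and 15 lost (4.29%, against 0.906%). Res499 against B16_untreated had 2 gained of 335 (0.597%, against 0.919% of 9360) and 13 lost (3.88%, against 1.52%). Res499 against B16_IFNg had 6 gained of 297 (2.02%, against 0.627% of 9254) and 5 lost (1.68%, against 0.875%). Near intergenic regions had 0.125% gained and 2.63% lost, 0.900% and 4.50%, and 0.886% and 2.22%, in the same order. The comparisons share B16_untreated or B16_IFNg libraries, and with 3 against 3 no region can have an exact p under 0.1.

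The full deposited lists of the groups that lack a region put these counts in scale. Of the 15 regions lost in B16_IFNg, 4 had no peak in any full B16_IFNg list, and of the 13 lost in Res499, 6 had none in Res499. Of the 3 gained in B16_IFNg, 0 were absent from all full B16_untreated lists, and of the 2 gained in Res499, 1 was. The full B16_untreated lists held 15045, 25374 and 20139 peaks, and those of the other groups 9221 to 16240, so only B16_untreated replicate 1 lay within the range of the others.

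Lost regions were mostly single sites in the weaker part of the 9214 kept peaks. Against B16_untreated, mean ranks over the calling libraries were 5729 to 8658 for the 15 lost in B16_IFNg. They were 3074 to 8658 for the 13 lost in Res499, of which the Pde3a site had the best. The site 89.4 kb from Pde3a, a phosphodiesterase gene (chr6:141159245-141159856), ranked 2270, 2000 and 2494 in B16_untreated and 5199, 2911 and 3569 in B16_IFNg, and was called in 0 of 3 Res499 libraries. It was the single far region of 440 (0.227%) called in all 6 libraries but those of Res499, against 0.15% of all 10680 regions, and 1 full Res499 list held a peak there. Its fold enrichment was 7.81, 14.3 and 10.3 in B16_untreated and 8.02, 8.43 and 6.33 in B16_IFNg.

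Only B16_untreated called 5 far regions in all of its libraries and in none of the other 6 (1.14% of 440, against 0.3%). The 2 beside Nabp1, a gene for a single-stranded DNA binding protein, lay 52.9 and 118 kb from it (chr1:51531395-51531996, inside the lncRNA gene Gm17767, and chr1:51596830-51597431). The first ranked 3808, 6886 and 9205 and the second 6371, 7238 and 5496, and no full list of B16_IFNg or Res499 held a peak at either. The site 257 kb from Klf6, a zinc finger transcription factor gene (chr13:5603919-5604692), ranked 4224, 5223 and 8720, with 1 peak in the full Res499 lists. Sites near Negr1, a neural adhesion gene (chr3:156472567-156473051), and Ly86 (chr13:37541621-37542163, inside the lncRNA gene Lncbate6) ranked 5727 to 8847 and 8328 to 9031. At the Negr1 site 1 full B16_IFNg list held a peak, and at the Ly86 site no full list of the other groups did.

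Other losses set 1 of the groups apart with partial calls elsewhere. The site 103 kb from Trib1, which encodes a pseudokinase (chr15:59759650-59760027), ranked 4118, 5484 and 6658 in B16_untreated, was called in none of B16_IFNg, and ranked 7615 and 7863 in 2 Res499 libraries. A site 1535 kb from Zeb2, a regulator of epithelial to mesenchymal change (chr2:46652487-46653088), ranked 4197, 8511 and 6196 in B16_untreated and 7417 and 5283 in 2 Res499 libraries, with none in B16_IFNg. The site near Id2, an inhibitor of helix-loop-helix factors (chr12:25208827-25209240), ranked 8194, 3853 and 8140 in B16_untreated and 6050 and 7052 in 2 B16_IFNg libraries, with none in Res499. Below the kept ranks, 2 full B16_IFNg lists held a peak at the Trib1 site and 1 at the Zeb2 site. At the Id2 site 1 full Res499 list did. The site 383 kb from Usp25 inside Mir99ahg, a lncRNA gene that hosts microRNAs (chr16:77500015-77500777), was called in the 3 B16_untreated libraries and in B16_IFNg replicate 3, and no full Res499 list held it.

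Among the losses in Res499 against B16_IFNg, 3 sites were also absent from the full Res499 lists. The site 84.6 kb from Nr2f2, a nuclear receptor gene (chr7:70267142-70267395), ranked 5647, 5033 and 7169 in B16_IFNg and 6663 and 5261 in 2 B16_untreated libraries. The site 181 kb from Cxcl12, a chemokine gene (chr6:116986372-116987054), ranked 8463, 6783 and 8340 in B16_IFNg and 7122 and 4378 in 2 B16_untreated libraries. Another site, 237 kb from Gm44812 (chr7:70822263-70822778), ranked 7152, 6990 and 5484 in B16_IFNg and 5844 in B16_untreated replicate 3.

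Few far regions were gained. The site 674 kb from Dnajb9, an endoplasmic reticulum chaperone gene (chr12:43531865-43532212), ranked 7110, 3098 and 2421 in Res499 and had no peak in any full list of the other groups. It was the single far region called in all Res499 libraries and in none of the other 6 (0.227%, against 0.169%). The site 60.1 kb from Cd34, a cell surface glycoprotein gene (chr1:194878496-194878723), ranked 4424, 4760 and 4723 in B16_IFNg and nowhere else (0.227%, against 0.14%), but all 3 full B16_untreated lists held a peak there below the kept ranks.

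The remaining gains were shared in part between groups. The other region gained in Res499 against B16_untreated, near Vmn1r238 on chromosome 18, ranked 2129, 7315 and 6311 in Res499 and 2650 and 4852 in B16_IFNg replicates 1 and 3. All 3 full B16_untreated lists held a peak there. The sites near Marchf11 (chr15:26170747-26173420) and Tcte2 (chr17:13550954-13553073) were called in the 3 B16_IFNg libraries, with ranks of 1294 to 5235 and 2338 to 7598, and in Res499 replicates 1 and 2, with no kept peak in B16_untreated. These were wide sites, of 2674 and 2120 bp once merged. Against B16_IFNg, Res499 gained sites near Gm9733, Armc2, Adgra3, Flrt2 and Ppp2r2a. Each of these sites had a peak in all 3 full B16_untreated lists. Those near Armc2, Adgra3 and Ppp2r2a also had one in 1 full B16_IFNg list. Among kept peaks, the sites near Gm9733, Adgra3, Flrt2 and Ppp2r2a were each called in 1 B16_untreated library. Armc2 (chr10:42092517-42092833) was called in all 3 B16_untreated libraries and was the single far region called in all but B16_IFNg (0.227%, against 0.0655%). No far region was called in all 6 other libraries and missing from B16_untreated (0 of 440, against 0.0655%).

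**Figure D5:**
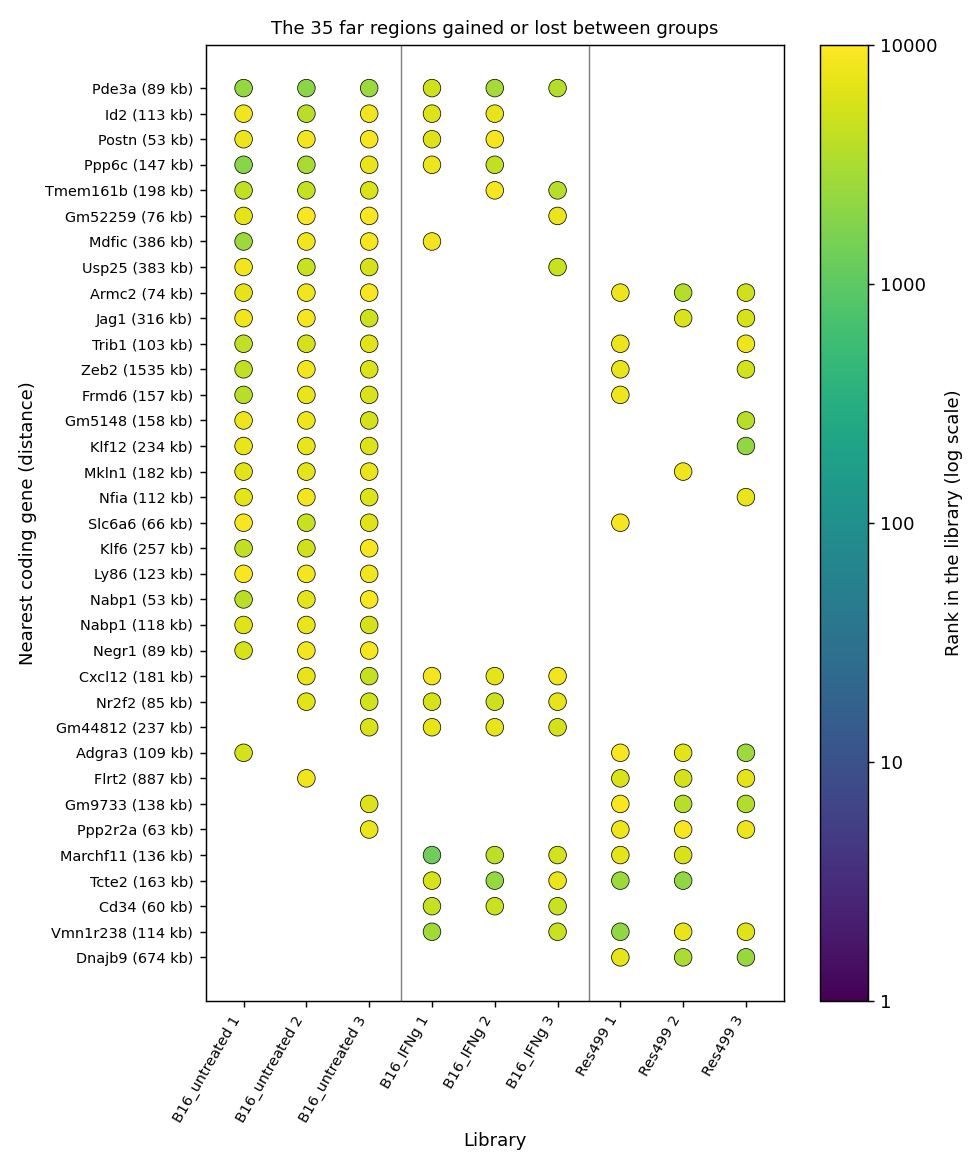
Rank (colour, log scale) of each of the 35 far regions called in all 3 libraries of a group and in none of another, in the 9 libraries, with no point where a library had no kept peak. Rows are named by the nearest coding gene and its distance in kb. All 3 B16_untreated libraries called 23 of them, and 5 were called in none of these.

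Far regions nearest to listed melanocyte or neural crest genes were too few to tell their share of gains and losses from that of all far regions. Of the 32 listed genes, 14 were the nearest coding gene of 27 far regions. Of these 3 were called in all 9 libraries, 11 in 1 library and 0 were gained or lost, against 70, 415 and 35 of all 1000. Around Mef2c, a factor active in neural crest and melanocytes, 7 members lay 53.8 to 611 kb from the gene, and 2 of them were called in all 9 libraries. The site chr13:83744913-83745449 ranked 7031, 707 and 1919 in B16_untreated, 3313, 5971 and 2569 in B16_IFNg, then 2670, 5322 and 4547 in Res499, which overlapped.

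Sites near other genes of this lineage were less uniform. The site 62.1 kb from Tfap2a, a neural crest factor (chr13:40650791-40651731), ranked 298, 1704 and 5581 in B16_untreated, 3152, 2578 and 2680 in B16_IFNg, then 8708, 8597 and 3955 in Res499, where the groups overlapped. The site 54.3 kb from Ednrb, the endothelin receptor of melanoblasts (chr14:103898784-103899760), overlaps the promoter of the lncRNA 4930518C04Rik and was called in all libraries but Res499 replicate 2. The site 104 kb from Mitf, the melanocyte master regulator (chr6:98125269-98125838), was called in B16_untreated replicate 3 and B16_IFNg replicate 3. The site 316 kb from Tyrp1, a pigment enzyme gene (chr4:80517510-80518113), was called in B16_untreated replicates 2 and 3, at ranks 9067 and 9000, and in no full list of the other groups.

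No far region had a listed interferon gene as its nearest coding gene (0 of 21 genes). These genes were nearest to 21 regions at any position, and far regions were 6.38% of all 15669 regions. A count of 0 among 21 thus does not set these genes apart. Another list held AP-1 and TEAD genes, their targets and other factors (Maf, Klf and Runx genes among them). Of its 25 genes, 4 (Jun, Maf, Klf4 and Klf6) were nearest to 10 far regions. Of these 10, 2 were called in every library, against 70 of all 1000. The site 119 kb from Klf4, a zinc finger factor gene (chr4:55650978-55652038) ranked 1663, 1943 and 796 in B16_untreated, 930, 1904 and 2994 in B16_IFNg, then 2852, 6655 and 2300 in Res499. All Res499 ranks there were behind all B16_untreated ranks. The site 109 kb from Jun, a subunit of AP-1 (chr4:95161029-95161830, inside the lncRNA gene Junos), ranked 530, 3692 and 1037, then 3322, 3903 and 3089, then 809, 1545 and 5424, with overlap. Of the 10 regions of this list 1, that near Klf6, was lost, against 35 of all 1000 gained or lost.

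Of 24 tumour growth genes, 8 were nearest to 16 far regions. Of these, 1 was called in all 9 libraries and 1, near Id2, was lost. Among all 1000 far regions, 70 were called in all 9 and 35 were gained or lost. The site 88.6 kb from Myc, the proto-oncogene, inside its neighbouring lncRNA gene Pvt1 (chr15:62078966-62079874), ranked 1484, 1822 and 494 in B16_untreated, 1953, 2179 and 761 in B16_IFNg, then 4328, 3890 and 4200 in Res499. Every Res499 rank was behind all 6 others, and the fold enrichment was 6.93, 6.33 and 5.56 in Res499 against 7.51 to 13.1 in the other 6 libraries. That pattern was found after the values were seen and was not tested. The median fold of whole lists was also lower in 2 Res499 libraries (5.60 and 5.76), with 6.16 to 11.03 in the 6 others and 6.99 in Res499 replicate 1.

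Of 67 developmental factors of gene deserts, 14 were nearest to 26 far regions. Of these, 0 were called in all 9 libraries, 12 in 1 library and 3 (near Zeb2, Nr2f2 and Nfia) were gained or lost. The numbers among all 1000 far regions were 70, 415 and 35. The site 181 kb from Irx5, a homeobox gene (chr8:92175889-92176600), ranked 2103, 1800 and 1698 in B16_untreated, 8201 and 1498 in B16_IFNg replicates 1 and 3, and 2552, 7666 and 2013 in Res499. It was missing from B16_IFNg replicate 2 alone. The Nfia site (chr4:97465835-97466504) was called in the 3 B16_untreated libraries, at ranks 6863, 8516 and 6087, and in Res499 replicate 3.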

How the data were processed

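ATAC-seq peak lists of 9 libraries in 3 groups of 3 were analysed. The submitters' processing notes name CASAVA, cutadapt 1.9, Bowtie2 2.2.4, MACS2 and the build GRCm38 (mm10). Which MACS2 version and settings were used, and whether reads were shifted for the transposase, is not given in the sources used here. Unshifted reads would move peak edges by a few bases.

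Each deposited list was called in 1 library and not on pooled libraries. For each peak the authors deposited a score, a fold enrichment (a ratio to the local background), a −log10 p, a −log10 q and the offset of the summit. They are the authors' values and were used only to describe and rank peaks within a list. The score, the −log10 q and the summit were not used. Depth per library is unknown, so no interval for counting error is given.

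The first 9214 peaks by −log10 p on chromosomes 1 to 19 and X were kept in each list, with ties broken by fold, and 3 to 17 peaks per list on other sequences were not used. Overlapping peaks were merged, and a library called a region that it overlapped by at least 1 base. Gene positions came from a RefSeq table of GRCm38.p6 with 21631 coding genes and 27923 non-coding genes and pseudogenes. Members and lists were chosen with earlier results of these data known.

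Groups were compared with exact two-sided permutation tests over 84 choices of 3 of 9 libraries (smallest p 0.0119), again within the fragment class (a shortest peak of at least 150 bp is long), and by pairs of groups. Benjamini-Hochberg adjustment covered the 6 main tests. Gained and lost regions were counted against regions called in at least 3 of the 6 libraries compared, and no p was given per region. The text names the 10 best-ranked members called in all 9 libraries, up to 10 gained and 10 lost per comparison by mean rank, those of 1 group alone, the farthest, the widest, those beside the 50 kb limit and those nearest to listed genes, of which a part is printed. Over far regions, the deviations of same-numbered libraries of different groups had correlations of −0.0725 to 0.115 (median 0.032). Those of differently numbered libraries were −0.135 to 0.087 (median −0.031). The ranges overlapped, and their difference was not tested. The labels give no shared origin, so replicate numbers were not used as pairs. The calculation was tested on simulated calls. Alternatives changed the list length, ranking, distance, gene set, overlap, merging and calling rules, and left out each library. Leaving out the first 4 Mb of chromosomes and breaking ties by file order were added after seeing the data. No genome sequence was used here, so sequences are shown only for promoter windows. Python 3.11.15, numpy 2.4.6, pandas 2.3.3, scipy 1.17.1 and matplotlib 3.10.9 were used.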

Additional observations from a re-analysis of the deposited data

How the results depend on the processing

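Differences between groups are given as B16_IFNg with Res499 minus B16_untreated. Over all deposited peaks, where B16_untreated lists are longer on average, far regions differed by −726.5 (exact p = 0.0119), their width by −59.1 bp (exact p = 0.274) and their rank by 4.48 points, the rank of far minus near peaks was 1.63 points, B16_IFNg lost 102, and Res499 gained 1 and lost 141 against B16_untreated and lost 14 against B16_IFNg. Over 4607 peaks the rank difference was 0.626 and far minus near −4.40 points (exact p = 0.0312), B16_IFNg lost 1, Res499 gained 5 and lost 7 against B16_untreated and gained 2 and lost 0 against B16_IFNg. Ranked by fold, the rank difference was 0.374, the log2 ratio of far to near −0.060 and far minus near −3.43 points (exact p = 0.0156). Beyond 100 kb, Res499 lost 8 against B16_untreated and 2 against B16_IFNg. Beyond 20 kb, the rank difference was 0.235, far minus near 0.0838 points, and Res499 gained 5 against B16_untreated and lost 8 against B16_IFNg. Counting every gene, the rank difference was 1.10, far minus near −3.37 points (exact p = 0.043), and gained and lost were 1 and 2, 1 and 2, and 1 and 1 in the order of comparisons used in the report. With a peak covering 50% of the region, Res499 gained 0 and lost 27 against B16_untreated. Over members called in all 9 libraries the rank difference was 4.36, and the width difference −218 bp (exact p = 0.0119). As a ratio to the whole list, the width of all far peaks differed by −0.023 (exact p = 0.69). Allowing 1 exception per group, gained and lost were 34 and 69, 48 and 87, and 56 and 65, and with absence from the full lists 0 and 4, 1 and 6, and 3 and 3. Without the first 4 Mb of chromosomes far minus near was 0.362 points and Res499 gained 1 against B16_untreated. Breaking ties by file order changed no call. The cause of these shifts was not tested, apart from list lengths and member numbers, which the settings themselves change.

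Leaving out each library in turn, the width difference ran from −218.75 to −94.75 bp (exact p = 0.0357 to 0.214) and the log2 ratio from −0.00239 to 0.108. B16_IFNg gained 3 to 12 and lost 15 to 35 regions, Res499 gained 2 to 20 and lost 13 to 41 against B16_untreated, and gained 5 to 24 and lost 5 to 30 against B16_IFNg. The counts grew because 2 libraries satisfy the rule more easily than 3, and the highest counts came without B16_untreated replicate 1 (35 and 41), B16_IFNg replicate 1 (12) or 3 (30) and Res499 replicate 1 (20 and 24). Without Res499 replicate 2 and with 11179 peaks per list, the rank difference was 1.69, far minus near 0.455 points, B16_IFNg gained 7, Res499 gained 17 and lost 27 against B16_untreated, and gained 21 and lost 16 against B16_IFNg. The width of far minus near peaks kept its call under every setting run for it.

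The replicate block, with the number as a stratum, gave an exact p of 0.333 for the number, 0.037 for the width (−160.75 bp), 0.407 for the rank and 0.778 for the log2 ratio, and changed no call. Of 36 gains and losses, taken as at most 10 per direction in each comparison with a region counted once in each, 36 were kept when peaks up to 200 bp apart were merged, 27 when ranked by fold, 18 with 50% cover, 14 over all deposited peaks and 1 over 4607 peaks. Few libraries and unknown depth limit every count here.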

Other observations

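Far regions were not spread evenly over the chromosomes. Chromosome 6 held 107 of the 1000 members (10.7%), with 10.4% of near intergenic regions, 8.02% of gene-body and 5.45% of gene-end regions. The members called on it were 39, 42 and 45 in B16_untreated, 42, 37 and 36 in B16_IFNg, then 30, 38 and 33 in Res499, with overlap between groups. Per 100 regions of a chromosome, far regions were most frequent on chromosomes 13 (12.1) and 16 (11.4) and least on chromosomes 11 (2.52) and 19 (2.64). The copy number of chromosomes in these cells was not analysed here.

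Most members stood alone. Chained at gaps of up to 100 kb, they formed 759 groups, of which 610 were single regions and 9 held at least 5. Beside the start of chromosome 9, the longest chain was 10 members between Klf14 and Mkln1 (chr6:31033131-31314434), several inside Lncpint, a lncRNA gene of the p53 response, and none of these 10 was called in all 9 libraries. Chains of 7 lay between Sox9, the gene of a cartilage and neural crest factor, and Slc39a11 (chr11:113008356-113188830), with 6 of the members nearest to Slc39a11, and near Usp25 over Mir99ahg (chr16:77400358-77644655). The 5 members between 53.4 and 143 kb from Myc, all inside Pvt1, had 1 called in all 9 libraries and a median of 3 libraries.

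Ptprc, which encodes the leukocyte marker CD45, was the nearest coding gene of 3 far regions. The one called most often lay 164 kb from that gene on the promoter of the lncRNA Gm4258 (chr1:137898363-137898805). It was called in 8 libraries, at ranks of 2371 to 9189, and was missing from B16_untreated replicate 3, while Ptprc itself had no peak at its ends in any full list. This region was chosen after its values were seen.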
